A study of Mus musculus with 7 samples.

Results

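The 7 arrays of this experiment were compared by replicate number, replicates 1 and 2 against replicates 3 and 4, across both treatments. MIN6 is a mouse pancreatic beta-cell line, derived from an insulinoma, that makes and secretes insulin. The cells received phosphate-buffered saline (vehicle) or a polysaccharide extract of Maidong (MPE) for 3 days, and Cy3-labelled RNA of each sample was hybridised to a 1-colour Agilent mouse array. The first side held vehicle 1, vehicle 2, MPE 1 and MPE 2 (4 arrays), and the second held vehicle 3, MPE 3 and MPE 4 (3 arrays), so all 7 of the 7 arrays were used. The labels name no other difference between replicates, and do not give the MPE concentration used for the arrays or say whether replicates were separate cultures. Any p-value below therefore reflects only how these samples varied, and that variation may be technical.

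The sides were chosen by measured expression values, since the arrays' log2 levels already fell apart this way. Differences between its sides, written as replicates 3-4 minus replicates 1-2, are therefore described here without a test. All arrays lay on 1 slide. Arrays of replicates 1 and 2 stood in slide columns 1 and 2, and the others in columns 3 and 4, with vehicle 3 in column 4, so replicate number and slide column cannot be told apart. The vehicle arrays filled one slide row and the MPE arrays the other, and those factors cannot be told apart either.

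Immediate-early genes are transcription factors and regulators whose messenger RNAs appear within minutes of a growth factor, calcium or handling stimulus and decay quickly. The ATF4 programme is switched on when amino acids run short or the endoplasmic reticulum is stressed, and it raises amino-acid transporters and synthetic enzymes. Both are active in beta cells, where glucose and secretagogues induce immediate-early genes and heavy insulin synthesis loads the endoplasmic reticulum.

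Levels are log2 processed intensities relative to the 75th percentile of the array, which is set to 0. A gene was called ordered when, within vehicle and also within MPE, each array of replicates 3-4 lay beyond each array of replicates 1-2 in the same direction. It was called split when it was ordered and its fitted difference reached 1.5-fold, or 0.58 on the log2 scale. Among 22098 genes measured, 3433 (15.5%) were ordered higher and 4425 (20%) ordered lower on replicates 3-4. Together these were 7858 genes (35.6%). The split genes numbered 546 higher (2.47%) and 199 lower (0.901%), 745 in all (3.37%). Among the 19700 genes well above background on every array, 335 (1.7%) were split higher and 126 (0.64%) lower. Just inside the threshold lay Gm13315 at 0.59 and Nr4a1 at -0.59, and just outside it lay Greb1 at 0.58 and Bhlhe40 at -0.57. Scaled to the array median in place of the 75th percentile, the split was 372 higher and 322 lower, or 53.6% higher in place of 73.3%. Quantile normalisation gave 426 higher and 257 lower. Normexp background correction, which compresses dim probes, left 41 higher and 51 lower.

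The difference between replicates was seen in both treatments. Across 22046 genes, the vehicle difference (replicate 3 minus the mean of 1 and 2) and the MPE difference (the mean of 3 and 4 minus that of 1 and 2) had a Pearson r of 0.448 and a Spearman rho of 0.534, and r was 0.58 over those 19700 genes. These are descriptions across genes, which are not independent, and the arrays shared a slide. The first principal component held 33.2% of the variance. Its scores were -18.68, -9.56 and 11.47 on vehicle 1, 2 and 3, and -20.2, -18.55, 34.86 and 20.67 on MPE 1 to 4. MPE 3 lay farthest out, and vehicle 2 and vehicle 3 lay nearest the middle. Without vehicle 3, where only the order within MPE counts, the split genes numbered 1024 higher and 332 lower. Without MPE 4 they numbered 625 higher and 327 lower.

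**Figure D1:**
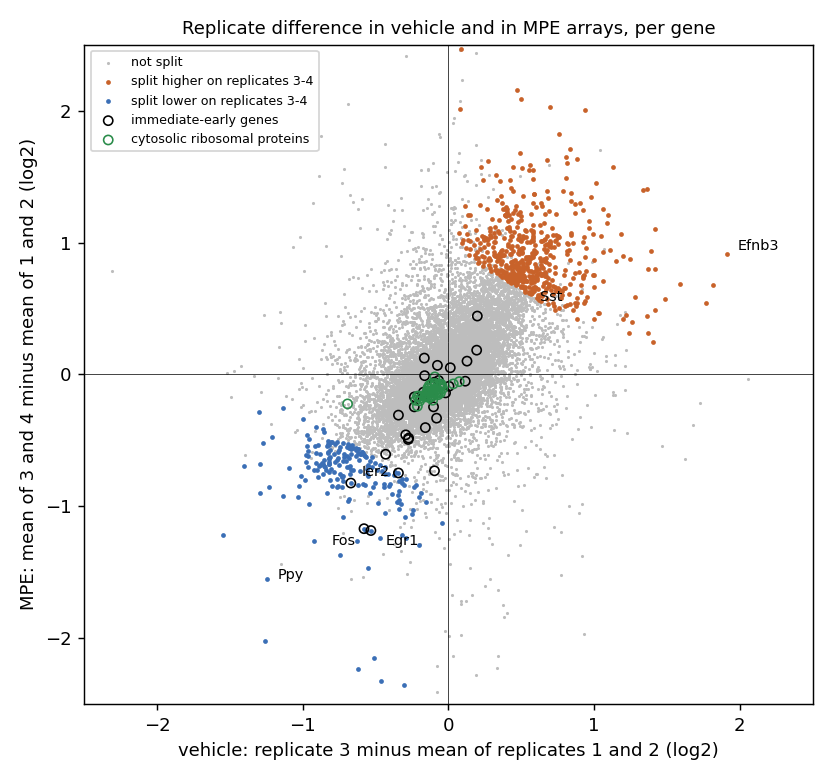
Each point is 1 of 22046 genes, with the vehicle difference between replicates (log2) on the horizontal axis and the MPE difference (log2) on the vertical axis. Orange and blue points are the 546 and 199 split genes, open circles mark immediate-early genes (black) and ribosomal protein genes (green), and 27 genes lie outside the axis limit of 2.5. The cloud runs from lower left to upper right, with Ppy, Fos and Egr1 at the lower left.

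The defining markers of beta cells were detected on both sides. All 7 beta-cell markers (Ins1, Ins2, Iapp, Pdx1, Mafa, Nkx6-1 and Slc30a8) were well above background on every array. Their summed linear level, in units of the array's 75th percentile, did not overlap between the sides. It ran from 2596 to 3135 on replicates 1-2 and from 2308 to 2550 on replicates 3-4. Ins1, Ins2 and Iapp, each at a log2 level of 8.50 or more, dominated that sum. Pdx1 and Mafa were level between the sides, and Nkx6-1 (-0.11) was ordered lower. Of the 4420 genes in the brightest of 5 equal bins of mean level, 1548 were ordered lower. The Ins1 difference was 0 under normexp, as was that of Ins2 under quantile normalisation. The endothelial markers Pecam1, Cdh5 and Kdr and the stromal markers Pdgfra, Pdgfrb, Col1a1 and Dcn did not reach the detection filter, which asked for 3 arrays well above background. Of 5 exocrine markers only Ctrb1 did, of 3 duct markers only Spp1, and of 4 immune markers only Cd68. Each of these 3 classes therefore rests on 1 gene. In the same linear units, Ctrb1 ran from 0.0841 to 0.106 on replicates 1-2 and from 0.0579 to 0.0724 on replicates 3-4. For Spp1 the ranges were 0.431 to 0.646 and 0.435 to 0.501, and for Cd68 0.585 to 0.651 and 0.664 to 0.748. A wider list of stromal, endothelial and immune markers had 6 measured genes, 1 ordered higher and 1 lower, and a median difference of -0.05. Cd68 (0.18) was its highest member and Cd3e (-0.57) its lowest, so Cd68 does not stand for immune genes as a class. The proliferation gene Ccnd1 and the glucose transporter gene Slc2a2 failed that criterion on all 7 arrays.

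Many immediate-early genes read lower on replicates 3-4, with Fos and Egr1 near 1.9-fold. Of 29 measured members, 15 were ordered lower and 3 ordered higher on replicates 3-4, where 20% and 15.5% of all genes were. The list's median difference was -0.19, against -0.02 over all genes, and 4 members were split lower. Between MPE and vehicle, with the replicate side as a term, the list's median difference was 0.01.

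Fos, which encodes a subunit of the AP-1 transcription factor, read 3.31, 2.93 and 2.54 on vehicle 1, 2 and 3 and 3.25, 3.38, 2.22 and 2.06 on MPE 1 to 4. The fitted difference was -0.93 (SE 0.19, 4 against 3 arrays), or 1.91-fold lower on replicates 3-4. Both MPE arrays of replicates 3-4 lay below every other array, and vehicle 3 lay between them and vehicle 2. Egr1, a zinc-finger factor induced by growth and glucose signals, read 5.43, 4.85 and 4.61 on the vehicle arrays and 5.42, 5.44, 4.31 and 4.18 on the MPE arrays. It was 1.90-fold lower (-0.92, SE 0.23). The MPE arrays carried more of this difference (-1.18) than the vehicle arrays (-0.53). Ier2, a nuclear regulator of the same early wave, read 2.17, 1.70 and 1.26 on vehicle and 2.01, 2.00, 1.15 and 1.22 on MPE, a difference of -0.76 (SE 0.14). Its sides did not overlap on any of the 7 arrays.

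Nr4a1, an orphan nuclear receptor, stood at 5.63, 5.37 and 5.16 on vehicle and at 5.56, 5.69, 4.91 and 4.84 on MPE. Its difference of -0.59 (SE 0.13) was exactly at the threshold of 1.5-fold. Below that size, Ier3 (-0.54), Egr2 (-0.48), the mRNA-destabilising factor Zfp36 (-0.41), the antiproliferative gene Btg2 (-0.40) and the MAP kinase phosphatase gene Dusp1 (-0.39) were ordered lower as well. So were the AP-1 subunits Fosb (-0.32), Junb (-0.31) and Jund (-0.24), while Jun (-0.23) was not ordered. Members ordered higher were Npas4 (0.35), an activity-induced factor of neurons and beta cells, Klf4 (0.19) and Klf6 (0.11). Npas4 read 2.59, 2.65 and 2.82 on vehicle and 2.54, 2.44, 2.97 and 2.89 on MPE, so the list did not move as one. Each of Fos, Egr1, Ier2 and Nr4a1 had 1 probe past the detection filter, and no further probe of theirs was measured.

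The sequence before the start of Fos and Nr4a1 is shown because cyclic-AMP response elements are one known route by which such genes are induced. Other routes were not examined. The 150 bases before the RefSeq start, build GRCm38.p6, are chr12:85473740-85473889 (plus strand) for Fos and chr15:101266696-101266845 (plus strand) for Nr4a1. Capitals mark the core letters TGACG or their reverse complement.
Fos: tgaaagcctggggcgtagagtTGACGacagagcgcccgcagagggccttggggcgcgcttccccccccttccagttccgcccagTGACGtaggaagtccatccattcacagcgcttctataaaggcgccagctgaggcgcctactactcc
Nr4a1: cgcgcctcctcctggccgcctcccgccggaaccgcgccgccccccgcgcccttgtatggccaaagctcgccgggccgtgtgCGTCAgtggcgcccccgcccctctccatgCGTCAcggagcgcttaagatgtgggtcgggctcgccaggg
Both stretches hold 2 copies of the core. Searched on both strands over the 250 bases before the start, TGACG was present in 8 of the 11 ordered-lower immediate-early genes with a window (72.7%), in 15 of the list's 22 genes with a window (68.2%) and in 19.8% of all 27025 genes. Lists that differed in other ways between the sides also held it above that share, in 12 of 24 splicing factors (50.0%) and 14 of 35 ribosomal protein genes (40.0%). The difference between these lists was not tested. The full palindrome TGACGTCA, which contains that core, was in 2 of the 11, in 8.33% of the splicing factors, in 8.57% of the ribosomal protein genes and in 1.77% of all genes. A match is a description of the letters and not of binding.

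**Figure D2:**
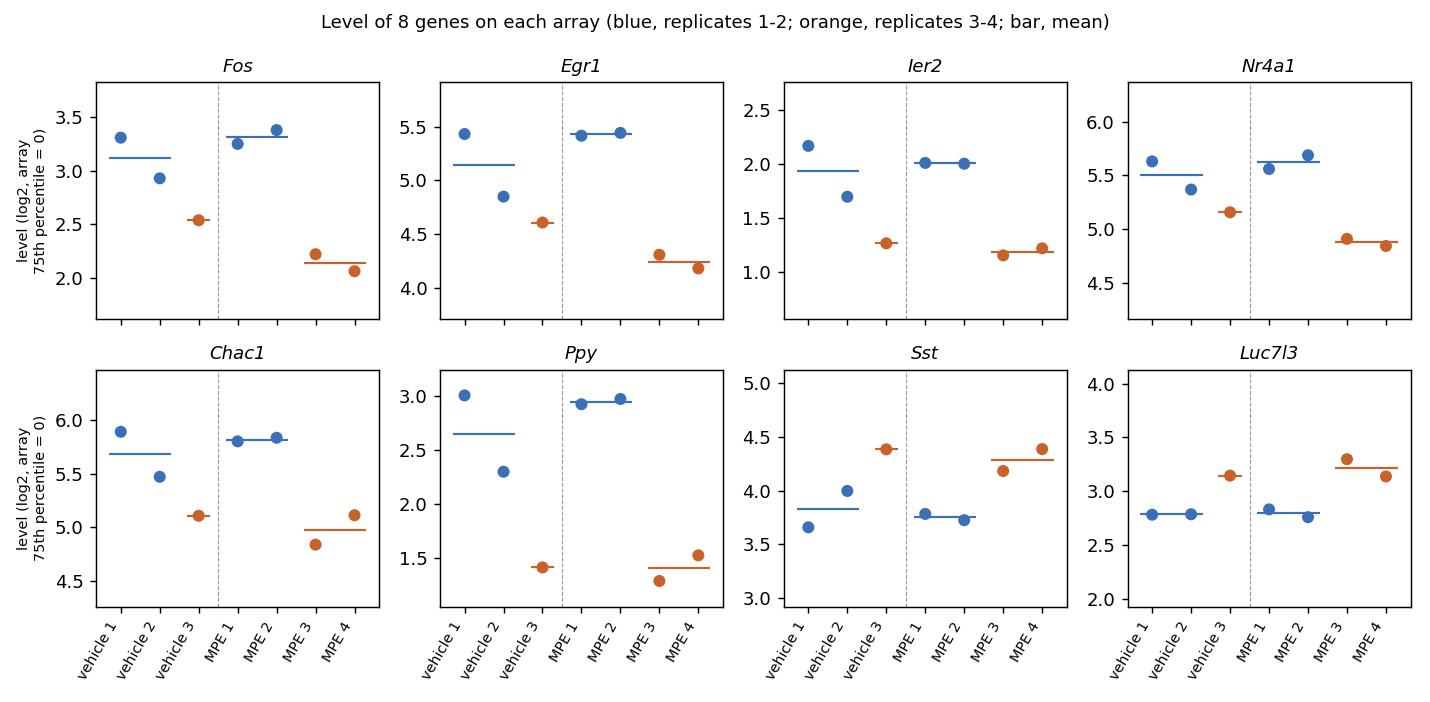
Level of 8 genes (log2, array 75th percentile set to 0) on each of the 7 arrays, with blue points for replicates 1-2, orange for replicates 3-4 and bars for the mean within treatment and side. In Fos, Egr1, Ier2, Nr4a1, Chac1 and Ppy the orange points lie below the blue ones within each treatment, and in Sst and Luc7l3 above them.

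ATF4 targets formed the list with the lowest median of those with more than 10 measured genes. Its 23 measured members had a median difference of -0.25, with 15 ordered lower and 1 ordered higher, where 20% and 15.5% of all genes were. The list's median level lay in the brightest of 5 equal bins of mean level. In that bin, 31.2% of genes with a symbol were ordered lower and 7.65% higher. Chac1, which breaks down glutathione, was the member that reached the split. It read 5.89, 5.47 and 5.11 on vehicle 1 to 3 and 5.80, 5.83, 4.84 and 5.11 on MPE 1 to 4. That was 1.66-fold lower on replicates 3-4 (-0.73, SE 0.15), and all 3 arrays of replicates 3-4 lay below all 4 others.

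Other members had smaller differences, some ordered and some not. Slc7a5, the large neutral amino-acid transporter, differed by -0.46 (SE 0.12), and its partner Slc3a2 by -0.31. The stress-induced chromatin protein Nupr1 read 5.98, 5.62 and 5.42 on vehicle and 5.88, 5.98, 5.43 and 5.44 on MPE (-0.45, SE 0.11). The synthetic enzymes Phgdh (-0.28), Psat1 (-0.20) and Asns (-0.22) were ordered lower, as were Atf5 (-0.31) and Atf4 itself (-0.17). Trib3, a pseudokinase that restrains insulin signalling, differed by -0.47 and was not ordered, because vehicle 3 at 3.68 lay above vehicle 2 at 3.58. Ddit3, the stress factor CHOP, differed by -0.25 and was not ordered either. The cationic amino-acid transporter gene Slc7a1 (0.12) was the member ordered higher. The endoplasmic-reticulum chaperone list, in contrast, had a median of -0.02, and the chaperone gene Hspa5 stood at -0.02 (SE 0.06). The difference between these lists was not tested.

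Nupr1 and Asns carry the 8 letters TGATGNAA, the ATF4 response element, in the 150 bases before their starts, which are chr7:126625471-126625620 (minus strand) and chr6:7693210-7693359 (minus strand). Capitals mark that element or its reverse complement, and in Asns also the core described above.
Nupr1: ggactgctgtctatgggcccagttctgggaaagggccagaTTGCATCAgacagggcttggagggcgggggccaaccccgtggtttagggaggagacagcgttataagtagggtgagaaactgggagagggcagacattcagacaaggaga
Asns: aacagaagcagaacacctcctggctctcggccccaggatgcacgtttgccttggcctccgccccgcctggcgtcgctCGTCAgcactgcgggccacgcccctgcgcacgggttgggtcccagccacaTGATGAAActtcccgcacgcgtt
Over the 250 bases before the start, on both strands, these letters were in 8 of the 23 list genes with a window (34.8%), in 4 of the 13 ordered lower (30.8%) and in 3.91% of all 27025 genes. The element was not found in the Chac1 stretch of 150 bases.

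Islet hormones other than insulin differed in opposite directions, with more ordered lower than higher. Of 12 measured genes in the list of other islet hormones and markers, 5 were ordered lower and 2 higher, where 20% and 15.5% of all genes were. The list's median difference was -0.20. Ppy, which encodes pancreatic polypeptide, had the largest difference of any gene with a symbol that was ordered and well above background on all 7 arrays. It read 3.01, 2.30 and 1.41 on vehicle and 2.93, 2.97, 1.28 and 1.52 on MPE, or 2.69-fold lower on replicates 3-4 (-1.43, SE 0.22). Every array of replicates 3-4 lay below every array of replicates 1-2, and vehicle 2 was the lowest of the latter. Sst, which encodes somatostatin, ran the other way. It read 3.66, 4.00 and 4.38 on vehicle and 3.78, 3.72, 4.18 and 4.39 on MPE, or 1.45-fold higher (0.54, SE 0.11). The ghrelin gene Ghrl was ordered higher at 0.45 from a low level, and the glucagon gene Gcg stood at 0.02 (SE 0.06). In bulk RNA, a change in the number of hormone-expressing cells and in RNA per cell cannot be told apart. The probe for the delta-cell factor Hhex was below the detection criterion throughout.

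Insulin and the secretory products of beta cells were slightly lower on replicates 3-4. The list also holds Sst, described above among the islet hormones other than insulin. Of 20 measured genes, 15 were ordered lower and 1 (Sst) higher, with a median of -0.15. The shares over all genes were 20% and 15.5%, but 1548 of the 4420 genes in the brightest of 5 equal bins of mean level were ordered lower. Ins1 read 9.99, 9.90 and 9.61 on vehicle and 9.78, 9.76, 9.54 and 9.66 on MPE, a difference of -0.23 (SE 0.06). Ins2 differed by -0.19 (SE 0.08) and the granule protein gene Chga by -0.23 (SE 0.06). Pcsk1n, an inhibitor of the prohormone convertase that processes insulin, had the list's lowest value at -0.35, and Ucn3, a hormone of mature beta cells, stood at -0.25. Beta-cell transcription factors had a median of -0.04, with 6 of 22 ordered lower (27.3%), near the 22.1% of all genes with a symbol, and Pdx1 (0.02, SE 0.04) and Mafa (0.00, SE 0.08) were level. Under quantile normalisation and in the authors' value table, the secretory list's median was -0.01.

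Ribosomal protein genes moved together by a small amount. All 46 of the list's measured members had a difference below 0, and 40 of 46 were ordered lower, where 20% of all genes were. The median difference was -0.12, and most members lay between Rpl13a at -0.23 and Rpl22 at -0.06. Rpl37 had the lowest value (-0.41), and its probe was dim, between -3.69 and -2.48. Over every protein-coding ribosomal protein symbol on the array, a list chosen after values had been seen, 69 of 81 measured genes were ordered lower and 0 higher. In the brightest bin, as given above, 1548 of 4420 genes were ordered lower and 336 higher. Quantile normalisation brought the list's median to 0.00. Housekeeping references behaved alike, with 11 of 20 ordered lower, a median of -0.13, and the actin gene Actb at -0.27 (SE 0.05).

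Splicing factors and RNA-binding proteins tended the other way. Of 26 measured genes, 13 were ordered higher and 0 lower, where 15.5% and 20% of all genes were, and the median was 0.10. Luc7l3, a component of the early spliceosome, read 2.78, 2.78 and 3.14 on vehicle and 2.83, 2.76, 3.30 and 3.14 on MPE (0.40, SE 0.05). The lowest array of replicates 3-4 stood above the highest of replicates 1-2. Clk1, a kinase that phosphorylates SR proteins, was higher by 0.28, Hnrnpdl by 0.25 and the SR protein genes Srsf1 by 0.20 and Srsf5 by 0.17. Hnrnpa1 (0.02), Hnrnpu (0.00) and Tra2b (0.02) were level, so only some members differed.

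RNAs retained in the nucleus or tied to the nucleolus went both ways. Neat1, the scaffold of paraspeckles, was split higher at 0.72 (SE 0.22), reading -0.27, -0.28 and -0.03 on vehicle and -0.69, -0.57, 0.61 and 0.22 on MPE. The MPE arrays carried most of it (1.04 against 0.25 in vehicle). Another probe that the array file names NEAT1 was split higher too, at 0.68 with levels of 4.24 to 5.26, while the other probe matched to Neat1 stood at 0.23 and was not ordered. Small nucleolar RNA host genes, a list chosen after values had been seen, had a median of 0.23 with 7 of 13 ordered higher and 0 lower, where 15.5% and 20% of all genes were. Snhg16 (0.41), Snhg20 (0.39) and Snhg7 (0.37) led it. The RNA components of the nuclear RNases ran the other way, with Rmrp ordered lower at -0.56 (SE 0.14) and Rpph1 at -0.34 (SE 0.03).

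DNA replication genes read slightly higher on replicates 3-4, relative to the array's 75th percentile. Of 30 differences, 26 were above 0, where 10119 of all 22098 genes were, and the list's median difference was 0.06. Of its 30 members, 7 were ordered higher and 1 lower. The shares were 15.5% and 20% of all genes, and 11.2% and 22.1% of genes with a symbol. Cdc45, a part of the replicative helicase, stood at 0.33, and Pola1, a polymerase subunit, at -0.22. Under median scaling the list's median was -0.02, a shift that moved all genes alike, since their median was then -0.09. Mki67, a marker of cycling cells, was ordered lower by -0.10 (SE 0.04). Circadian clock genes had a median of 0.00, and 3 of 18 were ordered lower (16.7%), near the 20% of all genes. The repressor gene Bhlhe40 had the lowest value at -0.57.

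**Figure D3:**
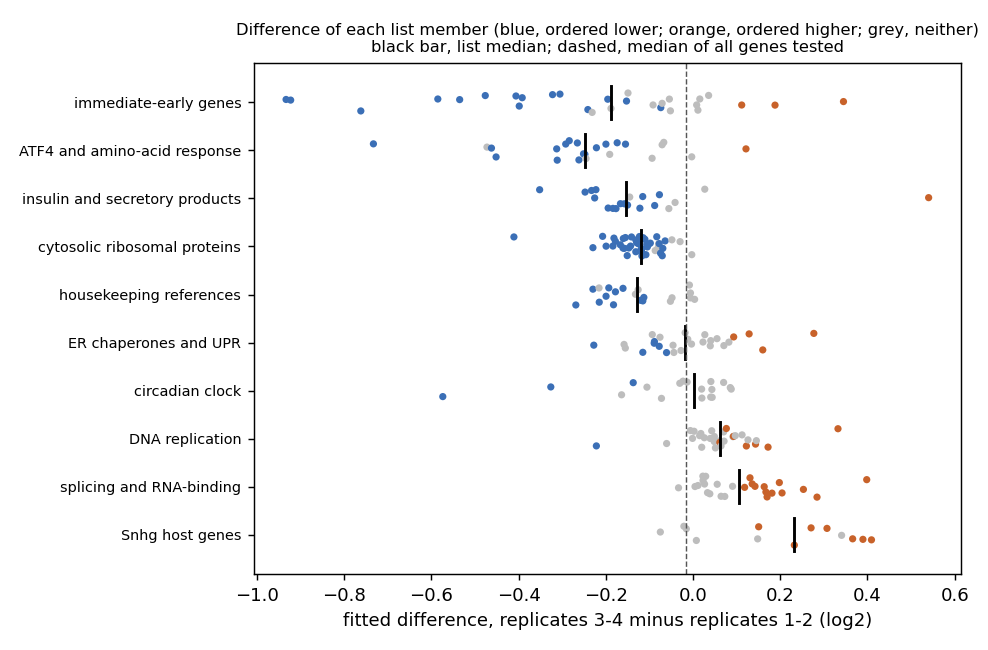
Fitted difference between replicates 3-4 and replicates 1-2 (log2) of each measured member of 10 gene lists, with a black bar at the list's median and a dashed line at the median of all genes (-0.02). Blue members are ordered lower, orange ordered higher and grey neither. The medians run from -0.25 for ATF4 targets to 0.23 for small nucleolar RNA host genes.

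Single genes with large differences were mostly dim or without a shared role. Among genes ordered lower, Rab5c, a GTPase of early endosomes, read 3.95, 3.11 and 2.51 on vehicle and 3.38, 3.51, 2.56 and 2.64 on MPE (-0.92, SE 0.24). Fam13c differed by -0.98 (SE 0.14). Its array pattern, with MPE 3 lowest and vehicle 3 and MPE 4 level with each other, differed from that of Fos. The steroid hydroxylase gene Cyp17a1 (-0.80), the keratin-associated protein gene Krtap19-4 (-0.80), the receptor-like pseudokinase gene Ptk7 (-0.77), the germline gene Rnf17 (-0.79) and the olfactory receptor gene Olfr722 (-0.87) also had MPE 3 as their lowest array. Dkk2, a modulator of Wnt signalling, stood at -0.86, and vehicle 1 at -1.10 lay far above the other 6 arrays, which ran from -2.76 to -1.87. Acad10 (-0.86), Olfr700 (-0.78) and Olfr29-ps1 (-0.86) completed the set, and for Olfr29-ps1 the difference came from MPE 2 at -1.10 while the other arrays were at -3.31 to -2.57. In the lists, Tnfaip3, which restrains NF-kB signalling, was split lower at -0.61, and Psap, the precursor of lysosomal saposins, at -0.59.

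Among genes ordered higher, Efnb3, a membrane-bound ephrin ligand, had the largest difference, 2.49-fold (1.32, SE 0.25). It read -2.40, -2.52 and -0.55 on vehicle and -2.59, -2.72, -1.83 and -1.65 on MPE, so vehicle 3 was the highest array. The antisense RNA gene Zfhx2os was 1.98-fold higher (0.98, SE 0.10), at -1.61, -1.54 and -0.73 on vehicle and -1.67, -1.81, -0.55 and -0.78 on MPE. Its 3 arrays of replicates 3-4 all lay above its 4 others. The adhesion gene Icam2 (0.82), the sulfurtransferase-like gene Tstd1 (0.81), the melanocortin receptor gene Mc5r (0.77) and the cytokine gene Il4 (0.75) had the same form, with no level above 0.39. Another probe for Mc5r stood at -0.16. Others were carried by 1 array. Tdo2, which degrades tryptophan, read 0.25 on MPE 4 and -3.03 to -2.24 on the other 6 arrays. On MPE 3, 1700042O10Rik read -0.94, Xkrx -1.78 and Calhm5 -1.87, each more than 1 log2 unit above its next array. Opn5 (0.77), Camp (0.81) and Tekt2 (0.74) were below -2 on every array.

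Some genes crossed the detection limit between the sides. Of 22098 genes measured, 6 were not well above background on any replicate 1-2 array, and 73 on no replicate 3-4 array. The filter of 3 arrays asked for all 3 arrays of replicates 3-4 in the first case and for 3 of 4 in the second. These counts therefore cannot be compared with each other. The genes named here have a symbol and were well above background on every array of the other side. Tmem150b was well above background on 0 arrays of replicates 1-2 and on all 3 of replicates 3-4, at least 2.64-fold higher, and 4930404N11Rik was at least 1.27-fold higher. The reverse held for Gml2, Spata25 and Gbx1, which were at least 1.30-fold, 1.28-fold and 1.14-fold lower on replicates 3-4.

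Brightness and the kind of probe ran with the difference. With genes in 5 equal bins of mean level, the median difference was 0.07 in bin 1 (dimmest) and -0.05 in bin 5 (brightest), and 314 and 179 of the genes split higher came from bins 1 and 2. Genes with a RefSeq symbol were split higher in 51 of 13666 cases (0.373%) and lower in 96 (0.702%). Probes named only by an Ensembl transcript were split higher in 203 of 3108 cases (6.53%), and those named by an AK cDNA clone in 173 of 1969 (8.79%). These classes are dimmer, but within bin 2, 36.5% of Ensembl-named and 38.6% of AK-named genes were ordered higher, against 12.7% of genes with a symbol and 12.9% of probes named by genome coordinates. In bin 5, 54.8% of coordinate-named probes and 50.9% of Ensembl-named ones were ordered lower, against 31.2% of genes with a symbol. What these transcript classes share was not tested. Bands of 48 array rows had median differences between -0.02 and -0.01, close to the -0.02 of all genes.

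**Figure D4:**
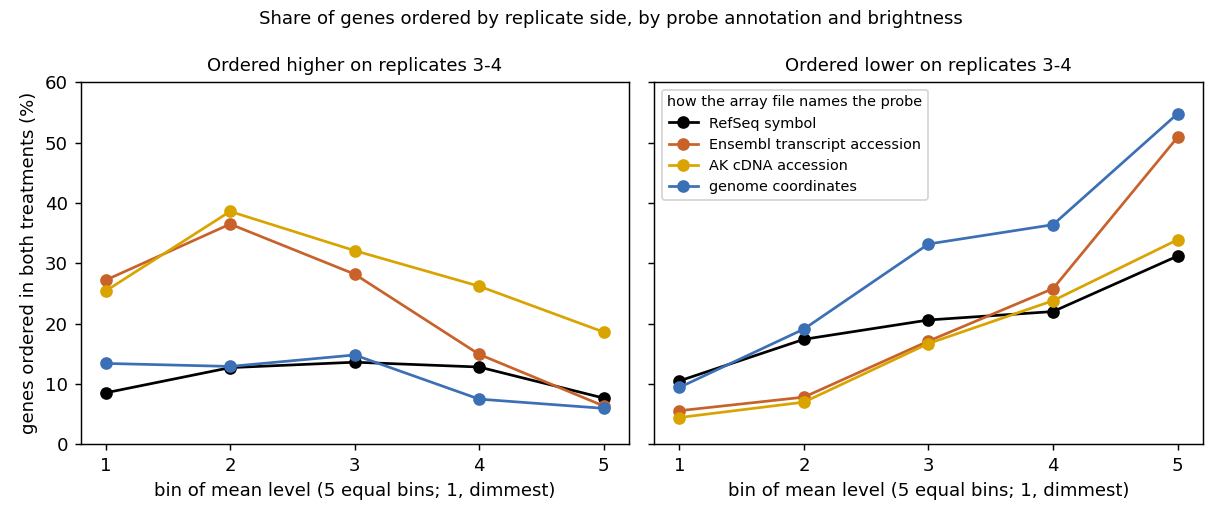
Percent of genes ordered higher (left) and ordered lower (right) on replicates 3-4, by bin of mean level from 1 (dimmest) to 5 (brightest), for 4 ways in which the array file names a probe. In bin 2 the Ensembl and AK classes reach 36.5% and 38.6% ordered higher, against 12.7% of genes with a symbol.

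Further probes of the same gene were read on the same arrays and belong to the values by which the sides were chosen, so they are a description and no independent check. Among 720 further probes of genes ordered higher, 29.9% were themselves ordered higher, against 12.6% of all such probes. Among 1329 further probes of genes ordered lower, 33.3% were ordered lower, against 21.4%. Across 6081 pairs the correlation of differences was 0.283, as a description over probes that share arrays.

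Control spots carry no probe for a mouse transcript and were not used to propose the split. The mean log2 signal of the spike-in spots was 9.08, 9.08 and 9.05 on vehicle and 9.11, 9.15, 9.06 and 8.99 on MPE. It was lower on replicates 3-4 within each treatment, by 0.06 on average (exact permutation within treatment, two-sided p = 0.0556, adjusted p = 0.148 over 8 measures). The smallest p the 18 arrangements can give is 0.0556. Negative-control spots well above background numbered 0, 1 and 5 on vehicle and 8, 4, 9 and 9 on MPE, of 308 spots, and were more on replicates 3-4 (exact permutation p = 0.0556, adjusted p = 0.148). The size of the surface that the scanner software subtracts across the array was also ordered higher, with the same exact permutation p. The remaining 5 measures were spike-in slope, spike-in detection limit, negative-control signal and its spread, and local background. They were not ordered, with exact permutation p between 0.111 and 0.778. Local background was taken at the mouse-probe spots, and the subtracted surface spans the whole array, so neither is a control-spot measure. Over all 35 arrangements the spike-in p was 0.0286, the smallest possible, and 0.229 after adjustment.

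**Figure D5:**
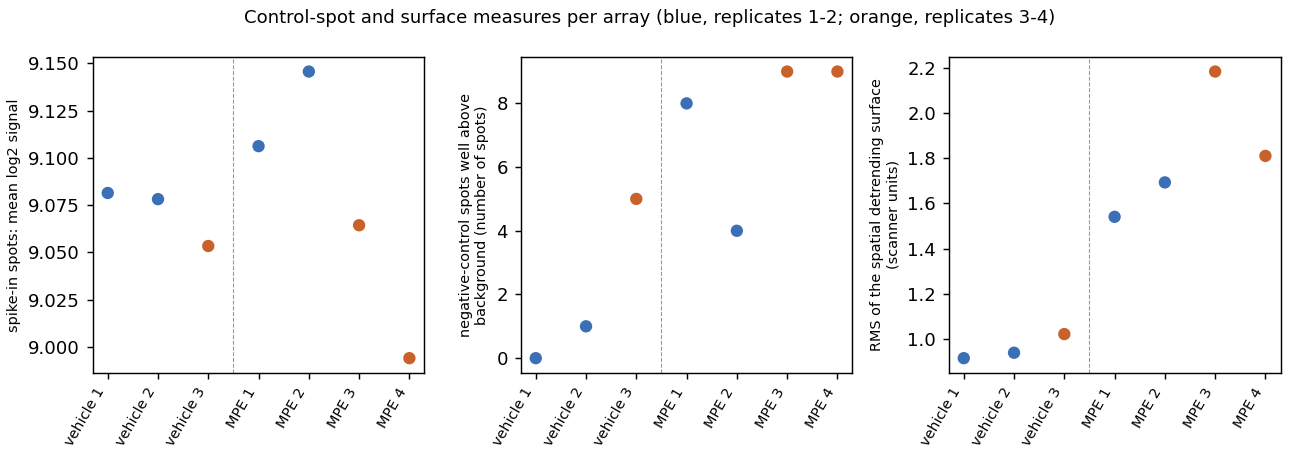
Mean log2 signal of spike-in spots, number of negative-control spots well above background, and size (root mean square, scanner units) of the subtracted spatial surface on each array. Blue points are replicates 1-2 and orange points replicates 3-4. Within each treatment the orange points lie below the blue in the first panel and above them in the others.

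Relative to the array's 75th percentile, the spike-in signal was lower on replicates 3-4. It was 0.11, 0.07 and -0.12 on vehicle and -0.05, -0.05, -0.25 and -0.14 on MPE. Scaled to the spike-in spots, an alternative added after the data were seen, every gene's difference was higher by 0.19. The median of all genes was then 0.17, and the split was 1424 higher and 44 lower. ATF4 targets kept a median below 0 (-0.06), while immediate-early genes (0.00), insulin and secretory products (0.04) and ribosomal proteins (0.07) lay at or above 0, though below the median of all genes. Ppy (-1.24), Fos (-0.74) and Egr1 (-0.73) stayed lower. Directions of the lists above are thus relative to the array's 75th percentile.

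The treatment contrast was not used to propose the split and was tested with the replicate side as a term. With the side in the model, 1 gene was higher with MPE and 0 were lower at a limma adjusted p of 0.05 (0.00453% and 0% of genes), against 256 higher and 1033 lower at an unadjusted p under 0.05. That gene met the detection filter through its MPE arrays alone, and with detection asked for on all 7 arrays it was left out and no gene passed. Fitted without the side, the same test also called 1 higher and 0 lower, with 167 and 740 at the unadjusted level. The median residual SD was 0.0972 with the side and 0.123 without it, and the median SE of the treatment difference 0.0732 and 0.0910. The gene called was the olfactory receptor gene Olfr867 (limma adjusted p = 0.0303 with the side, 0.00492 without). It read -6.76, -6.87 and -6.73 on vehicle and -2.99, -3.34, -2.57 and -3.27 on MPE. No vehicle array and all 4 MPE arrays had it well above background, so its p sets MPE levels against vehicle values below the detection criterion. Its fold difference therefore has only a lower bound, which is not given here. The call was lost with the replicate block (limma adjusted p = 0.28), the slide column (0.0558), quantile normalisation (0.0673), normexp (0.218) and the authors' value table (0.0713). Leaving out any 1 array other than MPE 3 also ended it, with limma adjusted p from 0.0711 without MPE 2 to 0.439 without vehicle 3. Its own difference between replicate sides was 0.18 (SE 0.22). The next smallest p-values did not pass. They were D7Ertd143e, Slc5a10 and Cpa4 on the lower side (limma adjusted p = 0.339, 0.413 and 0.423) and Mlxip, Ikzf3 and Dhx8 on the higher side (0.535, 0.602 and 0.647).

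Whether MPE differed from vehicle by different amounts on the 2 sides was tested as an interaction, with vehicle 3 as the only vehicle array of replicates 3-4. Of 22095 genes, 1 was called (0.00453%), against 595 higher and 295 lower at an unadjusted p under 0.05. It was Hip1r, an adaptor of clathrin-coated vesicles, with a limma adjusted p of 0.000394. The gene read 0.96, 0.95 and -6.69 on vehicle and 1.02, 1.14, 1.12 and 1.19 on MPE. It was not well above background on vehicle 3 and was so on the 6 other arrays, so the call rests on 1 spot, and without vehicle 3 the interaction cannot be estimated. Next to it and not passing (limma adjusted p from 0.722 to 0.935) were Ipw, Mrpl1 and Ppp1r3e in one direction and Hcst, Col6a4 and Nap1l3 in the other. Mrpl1 read 2.04, 2.04 and 1.28 on vehicle and 2.02 to 2.18 on MPE, and Nap1l3 read -0.21, -0.20 and 0.93 on vehicle and -0.22 to 0.05 on MPE, so vehicle 3 stood apart in these too.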

How the data were processed

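Per the labels' protocols, 100 ng of total RNA per sample was labelled with Cy3 for 1-colour Agilent arrays. The deposited scanner files hold spot intensity from Agilent Feature Extraction, version 11.5.1.1 per the file headers and 10.5.1.1 per the submitters' processing notes, background-subtracted and spatially detrended. The authors' value table, deposited with them, holds 1 log2 value per probe. All its columns have a median of 4.438 and correlate at 0.9996 or more with their own array's log2 intensity. Its tool is not stated in the sources used here.

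Control spots were dropped, as were 611 spot values flagged as outliers, and 0 spots were saturated. Log2 processed intensity was reduced by the array's 75th percentile. Probes well above background on 3 or more of 7 arrays were kept (28938 of 56605), and a gene took its probe with the highest mean (22098 genes, 13666 with a symbol from RefSeq GRCm38.p6). Of all probes, 32989 matched a symbol, and 52 genes lacked a value on 1 or more arrays. Promoter sequences are RefSeq's, of that build.

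The fit was lmFit and eBayes in limma 3.58.1 (R 4.3.3), with treatment and replicate side as terms, and Benjamini-Hochberg adjustment at 0.05. The interaction was added for the difference between sides. Control-spot, background and surface measures were compared by exact permutation. In 5 simulations of the treatment term, genes were changed 1.5-, 2-, 4- or 8-fold, 250 of each size in all. Of those changed 1.5-fold, 57.6% were recovered, and of those changed 2-fold, 81.2%, with 57 of 109490 unchanged genes called. Larger changes ease the Benjamini-Hochberg cut for smaller ones, so these shares need not hold where few genes change.

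The members and all gene lists were chosen with earlier results of these data known. Genes named were up to 15 per direction with the largest ordered difference (symbol, well above background on all arrays), up to 3 split genes per direction in each of 37 lists, 20 landmark genes, up to 3 per direction detected on one side only, and the called genes and 3 smallest p-values per direction of the tested contrasts. Other list members were named after their values were seen. Some genes that met these rules are not reported here. The alternatives were other scalings, filters, thresholds and variance models, the value table, normexp with an offset of 50 (on median spot intensity), and each array left out. The number of arrays limits the precision.

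The replicate number was not treated as a pairing of the samples in the main fit. Deviations from the group means of same-numbered vehicle and MPE arrays correlated at 0.248, 0.0508 and 0.413. Same-numbered arrays also share a side, so these values cannot show whether the samples were paired.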

Additional observations from a re-analysis of the deposited data

Results flagged for a closer look

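Among 105 named genes and list medians checked over the 4 MPE arrays, 5 had 1 array far from the other 3. Unselected, independent items would give about 5.25. Many of the genes were chosen by their order between replicates, and all items share arrays, so that number is no yardstick here. Tdo2 read 0.25 on MPE 4 and between -2.66 and -2.36 on the other MPE arrays. Camp read -2.92 on MPE 4 and between -3.79 and -3.67 on the others. MPE 3 stood apart in 3 lists. The median level of the beta-cell transcription factors was 2.78 there and 2.94 to 2.97 elsewhere. The median level of the exocytosis machinery was 2.60 against 2.67 on each other MPE array. The DNA replication list had a median level of 4.63 on MPE 3 and 4.51 to 4.52 on the others.

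The difference between sides of MPE minus vehicle was 7.72 on the log2 scale for Hip1r, past the limma threshold for the difference itself. It rests on the vehicle 3 spot, which alone was not well above background.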

How the results depend on the processing

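Split genes (546 higher, 199 lower) moved with the handling of dim probes and with scaling. They numbered 322 lower under median scaling, 41 higher and 51 lower under normexp, 1418 higher and 460 lower with no filter, 335 higher and 127 lower with detection on all 7 arrays, and 1424 higher and 44 lower when scaled to spike-in spots, a choice made after seeing the data. A looser fold threshold gave 1560 higher and 909 lower, and a 2-fold threshold 77 and 18. Vehicle arrays alone gave 458 higher and 447 lower, and MPE arrays alone 1024 and 333. Leaving out 1 array gave 496 to 1024 higher and 195 to 332 lower.

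For MPE against vehicle (1 higher, 0 lower), 0 genes were higher under quantile normalisation, normexp, the value table, detection on all arrays, the slide column as a factor and the replicate block. A trended robust variance gave 3 higher, and no filter gave 9484 higher and 393 lower. Leaving out 1 array gave 0 to 2 higher and 0 lower, with 2 only without MPE 3, and Olfr867 kept its call in that case alone. Its limma adjusted p ranged from 0.000789 to 0.439 over the alternatives and was 0.28 with the replicate block. After the side was removed, same-numbered arrays correlated at -0.205, -0.228 and -0.267. The fit makes residuals sum to 0 within each side, which pushes pairs of the same side below 0. These values therefore cannot show whether the samples were paired. Before that removal, not every sample correlated best with its own number, as vehicle 1 did so with MPE 2 (0.305 against 0.248).

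The interaction (1 gene) gave 5 genes in the value table, 525 with no filter, 0 with detection on all arrays, 2 with a trended robust variance, and 1 to 3 with 1 array left out. It could not be fitted without vehicle 3. The cause of these changes was not tested.

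For single genes, 1077 of the recomputed differences moved by less than the replicate spread and 140 by more. For lists these numbers were 574 and 127. The tests of control-spot, background and surface measures within treatment could not pass 0.05. The smallest exact permutation p their 18 arrangements give is 0.0556, so nothing about stability can be read from them. Over all 35 arrangements the unadjusted spike-in p was 0.0286. Levels near the background limit what the dimmest genes can show, and each contrast rests on 7 arrays.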
